A study of Mus musculus with 24 samples.

Results

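The 26 genes described here encode parts of the synapses that use GABA and glycine, the main inhibitory transmitters of the mouse brain. They were taken by symbol, as the first word of the annotation that the files give each gene, and are 26 of the 48526 genes in the files. They comprise 3 genes of GABA synthesis and vesicular packaging, 4 of uptake and breakdown, 10 GABA-A and 2 GABA-B receptor subunits, 3 glycine receptor subunits, 2 genes of the postsynaptic scaffold and its adhesion, and 2 chloride cotransporters. RNA-seq was done on nucleus accumbens (NAc) and prefrontal cortex (PFC) of male wildtype C57BL/6J mice, obtained at 8 weeks of age and first kept for 2 weeks on 12 h of light and 12 h of dark. In mice under chronic jet lag (CJL) the cycle was then moved 6 h earlier every 2 days, while in control mice (Ctrl) it stayed as it was, and tissue was taken on Day 10. Sampling was at Zeitgeber Time 13 (ZT13), early in the dark phase, and ZT1, 1 h after lights on. The 24 libraries form 8 groups of 3: CJL ZT13, CJL ZT1, Ctrl ZT13 and Ctrl ZT1 in NAc, and the same 4 in PFC, with 3 mice for each lighting and time. PFC was cut from the most rostral coronal slice, next to the olfactory bulb, and NAc from the slice behind it, so that both are bulk tissue of mixed cells. Values are FPKM, fragment counts scaled to a gene's exon length and to the size of the library, and no read counts were used, so the counting error of a gene is unknown and precision is given by the spread between libraries.

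GABA is made from glutamate by the decarboxylases GAD67 and GAD65 and loaded, as glycine is, into vesicles by the transporter VGAT. It opens GABA-A receptors, chloride channels built from several subunits whose alpha, gamma and delta members set kinetics, drug sensitivity and synaptic or extrasynaptic placement, and it acts more slowly on GABA-B receptors, which couple to G proteins. In NAc the principal cells, the medium spiny projection neurons, are themselves GABAergic, whereas in PFC the principal cells are glutamatergic and GABA comes from interneurons.

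The labelled regions were checked against marker genes. Of 12 markers of striatal projection neurons, 12 were higher in NAc than in PFC at a limma adjusted p under 0.05 (median log2 difference 2.56). Of 12 markers of cortical excitatory neurons 11 were lower (median −2.43). Markers of other tissues were higher in NAc too. They were 8 of 9 for septum and ventral forebrain (1 lower, median 3.87) and 10 of 12 for thalamus and hypothalamus (1 lower, median 2.17). For ependymal cells they were 6 of 7 (0 lower, median 1.30). Markers of GABAergic interneurons were mixed, with 5 of 12 higher and 6 lower in NAc (median −0.15). Those of oligodendrocytes (8 of 8) and their precursors (6 of 6) were higher, and those of endothelial cells (6 of 6) were lower. The part of these tissues and cell types in the differences between the regions was not tested. In 7 libraries the markers of a neighbouring tissue lay more than 1.5 log2 units above the median of the region. They were NAc CJL ZT13 replicate 3 and NAc CJL ZT1 replicate 2 for thalamus and hypothalamus, NAc Ctrl ZT13 replicate 3, PFC CJL ZT13 replicate 1 and PFC Ctrl ZT13 replicate 1 for choroid plexus, and PFC CJL ZT1 replicate 2 and PFC Ctrl ZT1 replicate 1 for olfactory bulb. Mitochondrial genes took 15.5% to 21.3% of the summed FPKM in the PFC Ctrl ZT1 libraries, against 13.6% to 14.6% in the other 9 PFC libraries.

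The clearest differences among the 26 genes were between the regions. In the limma fit over all 24 libraries, 16 were higher and 7 lower in NAc than in PFC at an adjusted p under 0.05, and 3 did not pass. Of all 16072 genes tested 65.8% passed, 44% higher and 21.7% lower. For 12 genes the NAc and PFC libraries did not overlap at all, against 14.6% of all genes. The median log2 difference of the 26 genes was 0.51, and that of all genes was 0.12. Differences are on the log2(FPKM + 0.1) scale, which understates changes of genes with low values. With median-of-ratios scaling the median of all genes was 0.01 and the 26 genes split into 15 higher and 8 lower, while the higher share of all genes at an unadjusted P under 0.05 was 51.1% instead of 66.6%. In bulk tissue, fewer cells of a type and less RNA per cell cannot be told apart.

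**Figure D1:**
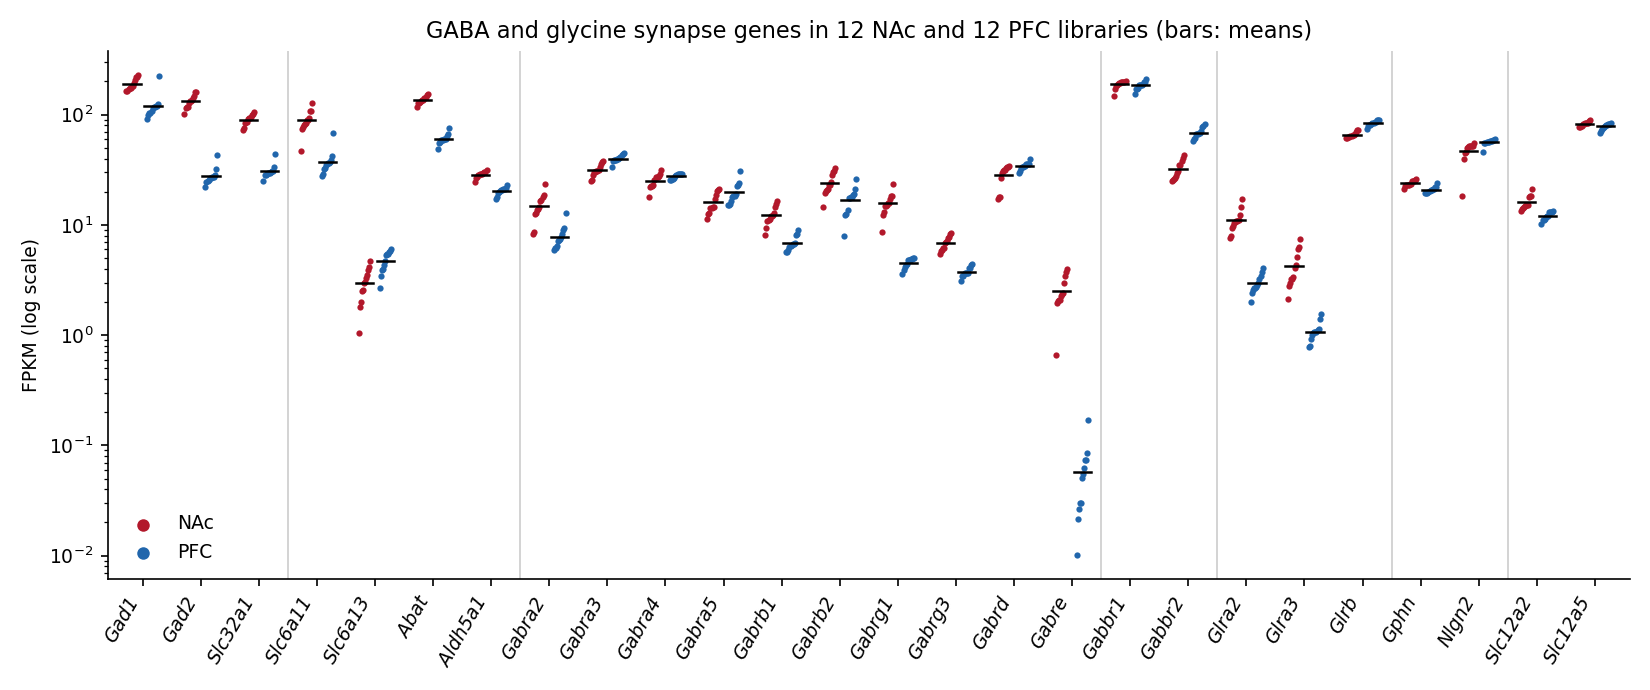
FPKM on a log scale (y axis) of the 26 genes, grouped by role along the x axis, in each of 12 NAc libraries (red) and 12 PFC libraries (blue), with black bars at the means. Gad2, Slc32a1, Gabrg1, Glra2 and Glra3 lie apart between the regions, Gabbr2 and Glrb are lower in NAc, and Gabre is at 0.0102 to 0.170 FPKM in PFC.

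All 3 genes of synthesis and packaging were higher in NAc. Gad2, which encodes GAD65 (chromosome 2, 22622205 to 22693874, mm10), had a lowest value of 102.0, a median of 133.5 and a highest value of 161.6 FPKM in NAc, against 22.0, 26.8 and 42.7 FPKM in PFC. Every NAc library thus lay above every PFC library. The log2 difference was 2.26 (SE 0.078, limma adjusted p = 9.99e-15). Gad1, which encodes GAD67 (chromosome 2, 70553072 to 70602014), ran from 162.7 through a median of 182.4 to 230.2 FPKM in NAc, against 91.1, 116.2 and 222.8 FPKM in PFC, a log2 difference of 0.69 (SE 0.0893, adjusted p = 1.16e-06). Its groups overlapped through 1 library, PFC CJL ZT1 replicate 2, while the other 11 PFC libraries reached at most 124.6 FPKM. Slc32a1, which encodes VGAT (chromosome 2, 158610767 to 158615748), ran from 73.3 through 91.7 to 104.7 FPKM in NAc, against 25.3, 29.6 and 44.4 FPKM in PFC, without overlap (log2 difference 1.55, SE 0.0643, adjusted p = 1.07e-13). The exons of Slc32a1 share 697 bases with an antisense gene, and since the strandedness of the libraries is not given in the sources used here, reads of both cannot be told apart. The same holds for Aldh5a1 (796 and 203 bases), Gabra5 (148) and Gphn (147).

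The ratio of the GAD genes lay apart between the regions. Gad1 over Gad2 in FPKM was 1.44 ± 0.158 in NAc and 4.29 ± 0.531 in PFC (SD, n = 12 each). The NAc ratios ran from 1.22 to 1.78 and the PFC ratios from 3.37 to 5.22, and the highest was in the PFC library with the high Gad1 value. This ratio was chosen after the levels were seen and is given with no test.

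The bases before a RefSeq start of both genes are shown because the levels of these genes differed by unlike amounts between the regions. They are from RefSeq's promoter windows (GRCm38.p6, the build of mm10), 5′ to 3′, limited to the stretch that lies in no exon of GENCODE M21, with CG pairs in capitals. The stretches are chr2:70561879-70562041 (plus strand) for Gad1 and chr2:22622077-22622204 (plus strand) for Gad2. Both begin 250 bases before the RefSeq start used. The Gad1 stretch lies inside the span of Gad1 given above, so it is not the sequence before the first annotated base of that gene. The Gad2 stretch ends just before the span of Gad2.
Gad1: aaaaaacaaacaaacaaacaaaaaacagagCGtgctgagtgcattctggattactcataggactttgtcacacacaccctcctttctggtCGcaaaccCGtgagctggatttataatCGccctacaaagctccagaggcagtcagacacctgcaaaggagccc
Gad2: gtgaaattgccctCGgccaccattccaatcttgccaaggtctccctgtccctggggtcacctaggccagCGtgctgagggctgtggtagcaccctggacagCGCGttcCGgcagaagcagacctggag
The full windows, of 250 bases before and 50 bases after the start, hold 21 CG pairs in Gad1 and 14 in Gad2, where the median over 32851 windows of mouse genes was 7. Neither window holds the E-box letters CACGTG (in 7.15% of all windows), the CRE letters TGACGTCA (1.79%), the EGR letters GCGTGGGCG (0.612%) or the homeodomain letters TAATTA (5.29%), searched on both strands. Of the 26 genes, 23 matched the table with 30 windows. Only 1 of them, Slc12a5, holds CACGTG, and 1, Gabrg1, holds TAATTA. Abat, Slc12a2 and Gabrd had no matching entry.

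Of the 4 genes of uptake and breakdown, 3 were higher and 1 was lower in NAc. Abat, which encodes the GABA transaminase that starts GABA breakdown, averaged 137.0 ± 10.6 FPKM in NAc and 60.3 ± 6.38 FPKM in PFC (SD, n = 12 each; log2 difference 1.19, adjusted p = 2.66e-14). Aldh5a1, the succinate semialdehyde dehydrogenase of the next step, averaged 28.6 ± 1.76 and 20.4 ± 1.63 FPKM (log2 difference 0.49), and neither gene's regions overlapped. Slc6a11, the GABA transporter GAT3 of astrocytes, averaged 88.6 ± 20.4 FPKM in NAc and 37.5 ± 10.5 FPKM in PFC (log2 difference 1.24), and NAc lay above PFC within each of the 4 conditions although the regions overlapped as a whole. Astrocyte markers were mixed, with 6 of 12 higher and 3 lower in NAc. Slc6a13, the transporter GAT2, which in mouse brain is known from leptomeninges and vessels, was low in both regions, with 1.05, 3.01 and 4.71 FPKM as lowest, median and highest value in NAc and 2.71, 5.03 and 6.01 FPKM in PFC. These ranges overlapped (log2 difference −0.72, SE 0.170, limma adjusted p = 0.000970). By condition the mean in NAc was 0.431 times that in PFC in CJL ZT13, 0.586 times in CJL ZT1 and 0.568 times in Ctrl ZT1, with no overlap, but in Ctrl ZT13 it was 3.61 FPKM in NAc and 3.34 FPKM in PFC, with overlapping libraries. Markers of leptomeningeal and perivascular fibroblasts were lower in NAc for 8 of 10 genes, with summed levels of 15.3 to 40.8 FPKM in NAc and 29.9 to 47.2 FPKM in PFC and none at 0 in a library, and their part in the Slc6a13 result was not tested.

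Among the 10 GABA-A receptor subunits, 6 were higher in NAc, 3 were lower and 1 did not pass. Gabre, the epsilon subunit, ran from 0.654 through a median of 2.31 to 4.01 FPKM in NAc, against 0.0102, 0.0524 and 0.170 FPKM in PFC. The log2 difference was 3.98 (SE 0.182, adjusted p = 4.41e-13) and, since the PFC values are near the pseudocount, 1.68 with a pseudocount of 1. Gabre lies beside Gabra3 on chromosome X (72255999 to 72274803 and 72432681 to 72656848). Gabrg1, the gamma 1 subunit (chromosome 5, 70751047 to 70842617), ran from 8.63 through 15.6 to 23.5 FPKM in NAc, against 3.60, 4.83 and 5.04 FPKM in PFC, again without overlap (log2 difference 1.73, SE 0.0751, adjusted p = 2.10e-13). Gabra2 (log2 difference 0.90), Gabrg3 (0.86), Gabrb1 (0.81) and Gabrb2 (0.53) were also higher in NAc, and with values adjusted for GC content and exon length Gabra2 was at 0.51, Gabrb1 at 0.40 and Gabrb2 at 0.31, each still called. Gabrg3 alone of these kept its regions apart, at 5.49 to 8.47 FPKM in NAc and 3.11 to 4.46 FPKM in PFC.

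The lower subunits differed by less. Gabra3, the alpha 3 subunit, ran from 24.9 through 30.6 to 38.0 FPKM in NAc, against 33.2, 39.7 and 44.5 FPKM in PFC (log2 difference −0.36, SE 0.0550, adjusted p = 1.10e-05). Gabrd, the delta subunit of extrasynaptic receptors, ran from 17.1 through 31.0 to 34.4 FPKM in NAc, against 29.4, 34.3 and 39.6 FPKM in PFC (log2 difference −0.33, SE 0.0933, adjusted p = 0.00464). By condition its mean in NAc was 0.727 times that in PFC in CJL ZT13 and 0.652 times in CJL ZT1, with no overlap, and 0.916 times in Ctrl ZT13 and 1.00 times in Ctrl ZT1, where the libraries overlapped. The CJL groups of NAc hold the 3 libraries at 17.1 to 17.8 FPKM that are described with the lighting comparisons. Gabra5, known from extrasynaptic receptors, averaged 16.0 ± 3.43 FPKM in NAc and 19.7 ± 4.67 FPKM in PFC, and its call (log2 difference −0.30, adjusted p = 0.0465) was lost in 14 of 32 alternatives, among them without PFC CJL ZT1 replicate 2 (−0.23, adjusted p = 0.0959). Gabra4, an alpha subunit found with delta, did not pass, at 25.3 ± 3.71 FPKM in NAc and 27.6 ± 1.48 FPKM in PFC (−0.14, adjusted p = 0.0531), and was called lower in 11 of 32 alternatives, with −0.26 under median-of-ratios scaling. The neighbouring genes of a cluster therefore did not share a direction: on chromosome 5 Gabrg1, Gabra2 and Gabrb1 were called higher in NAc and Gabra4, between Gabra2 and Gabrb1, was not, and on chromosome 7 Gabrg3 was called higher and Gabra5 lower.

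The bases before the start of Gabrg1 are shown because they hold the TAATTA letters found in no other of the 30 windows searched. The stretch is chr5:70842618-70842867 (minus strand, GRCm38.p6, RefSeq), written 5′ to 3′, with CG pairs and TAATTA in capitals.
Gabrg1: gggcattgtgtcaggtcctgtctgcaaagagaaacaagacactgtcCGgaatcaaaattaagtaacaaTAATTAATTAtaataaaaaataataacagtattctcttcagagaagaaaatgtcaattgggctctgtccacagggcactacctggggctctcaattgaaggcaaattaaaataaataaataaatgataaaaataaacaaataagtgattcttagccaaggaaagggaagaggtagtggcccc
TAATTA begins 182 and 178 bases before the start, and the overlapping matches share letters. The full window holds 3 CG pairs, and 76.7% of all windows hold at least as many.

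The GABA-B receptor works as a pair of its subunits. Gabbr1 averaged 187.9 ± 15.3 FPKM in NAc and 184.0 ± 15.2 FPKM in PFC (SD, n = 12 each), a log2 difference of 0.03 that did not pass (SE 0.0446, adjusted p = 0.567). Gabbr2 (chromosome 4, 46662305 to 46991873) ran from 25.1 through 30.2 to 43.4 FPKM in NAc, against 57.4, 67.8 and 81.8 FPKM in PFC. Every NAc library lay below every PFC library (log2 difference −1.12, SE 0.0740, adjusted p = 7.72e-11). Gabbr1 over Gabbr2 was 4.23 to 7.94 in the NAc libraries and 1.87 to 3.39 in the PFC libraries.

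Glycine receptor genes also split. The alpha subunits were higher in NAc: Glra2 ran from 7.54 through 10.8 to 17.2 FPKM in NAc, against 2.02, 2.80 and 4.10 FPKM in PFC (log2 difference 1.86, SE 0.0960, adjusted p = 2.29e-12). Glra3 ran from 2.14 through 3.75 to 7.46 FPKM in NAc, against 0.784, 1.06 and 1.56 FPKM in PFC (log2 difference 1.82, SE 0.137, adjusted p = 5.47e-10). The beta subunit Glrb, which anchors the receptor to gephyrin, was lower, at 61.1, 64.7 and 72.8 FPKM in NAc and 74.0, 84.4 and 90.4 FPKM in PFC (log2 difference −0.35, SE 0.0396, adjusted p = 1.93e-07). None of the 3 genes overlapped between the regions. In both regions Glrb had more FPKM than the sum of Glra2 and Glra3 in every library, since its lowest value was above their highest values added.

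Of the scaffold and adhesion genes 1 was higher and 1 lower in NAc, and of the chloride cotransporters 1 was higher. Gphn, the scaffold gephyrin, averaged 23.9 ± 1.47 FPKM in NAc and 20.9 ± 1.34 FPKM in PFC (log2 difference 0.19, adjusted p = 0.000251), which was lost under median-of-ratios scaling (0.08) and when values were adjusted for GC content and exon length (0.08). Nlgn2, the adhesion protein neuroligin 2 of inhibitory synapses, ran from 18.4 through 51.0 to 55.8 FPKM in NAc, against 45.8, 57.1 and 60.7 FPKM in PFC (log2 difference −0.31, SE 0.114, adjusted p = 0.0237). The lowest NAc value, in NAc Ctrl ZT1 replicate 2, stood apart from the other 11 NAc libraries at 39.6 to 55.8 FPKM, and without it the log2 difference was −0.19 (adjusted p = 0.00271). Without the 7 libraries named above, Nlgn2 no longer passed (−0.31, adjusted p = 0.123). Slc12a5, the chloride extruder KCC2, averaged 82.5 ± 4.01 FPKM in NAc and 78.3 ± 4.90 FPKM in PFC and did not pass (0.08, SE 0.0369, adjusted p = 0.0778). Slc12a2, the chloride importer NKCC1, was higher in NAc at 16.0 ± 2.41 FPKM against 12.1 ± 1.02 FPKM in PFC (log2 difference 0.39, adjusted p = 3.33e-05), a call lost with the GC and length adjustment (0.12), although the regions did not overlap. Slc12a5 over Slc12a2 was 3.93 to 6.28 in NAc and 5.71 to 7.45 in PFC.

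The 4 conditions were also taken singly (CJL ZT13, CJL ZT1, Ctrl ZT13, Ctrl ZT1). For 12 genes all 3 NAc libraries lay above all 3 PFC libraries in each condition. For Gabbr2 and Glrb the NAc libraries lay below in each. The share of all genes that lay apart in each condition was not computed. It is therefore unknown whether this separation is particular to the genes described here. By mean level Gad1, Gabbr1, Abat and Gad2 led in NAc, and Gabbr1, Gad1, Glrb and Slc12a5 led in PFC. Of the 25 neighbouring pairs in that order, the library ranges overlapped in 22 pairs in NAc and 20 in PFC. Over the 12 libraries of a region the highest value was more than 2 times the lowest for 11 genes in NAc and 8 in PFC.

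A list of 36 other genes of inhibitory synapses (auxiliary subunits, trafficking proteins, glycine and glutamine handling, chloride kinases) was also compared between the regions. Of 32 tested, 17 were higher and 7 lower in NAc at a limma adjusted p under 0.05. Of all genes tested 65.8% passed, 44% higher and 21.7% lower. The median log2 difference was 0.20 for the list and 0.12 for all genes. Among the higher were Gabrq, the theta subunit (4.79), Dbi, a peptide that binds the benzodiazepine site (0.92), and Kctd8, an auxiliary GABA-B subunit (0.89). Among the lower were Glul, the glutamine synthetase of astrocytes (−0.44), Wnk2, a kinase of the family that regulates chloride cotransporters (−0.41), and Shmt2, a mitochondrial enzyme of glycine metabolism (−0.37).

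Lighting and time of day were compared within each region, with 12 libraries in a fit. Of the 10 such comparisons only 1 held a call among the 26 genes, PFC of Ctrl mice at ZT13 against ZT1, with 5 genes lower. Comparisons that use the same Ctrl or CJL group share its libraries and are not independent of each other. Gabre did not reach 1 FPKM in PFC and was not tested there, which leaves 25 genes in PFC and 26 in NAc. The genes Aldh5a1, Gabra4, Gabra5, Gabrg3, Glrb, Gphn, Slc12a2, Slc12a5 and Slc6a11 had no unadjusted P under 0.05 in any of the 10 comparisons. For Glrb, Gphn and Slc12a5, the log2 fold changes of the pairwise comparisons stayed between −0.09 and 0.09. The rest of the genes without such a P ranged more widely, Slc6a11 most, from −0.37 to 0.34.

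**Figure D2:**
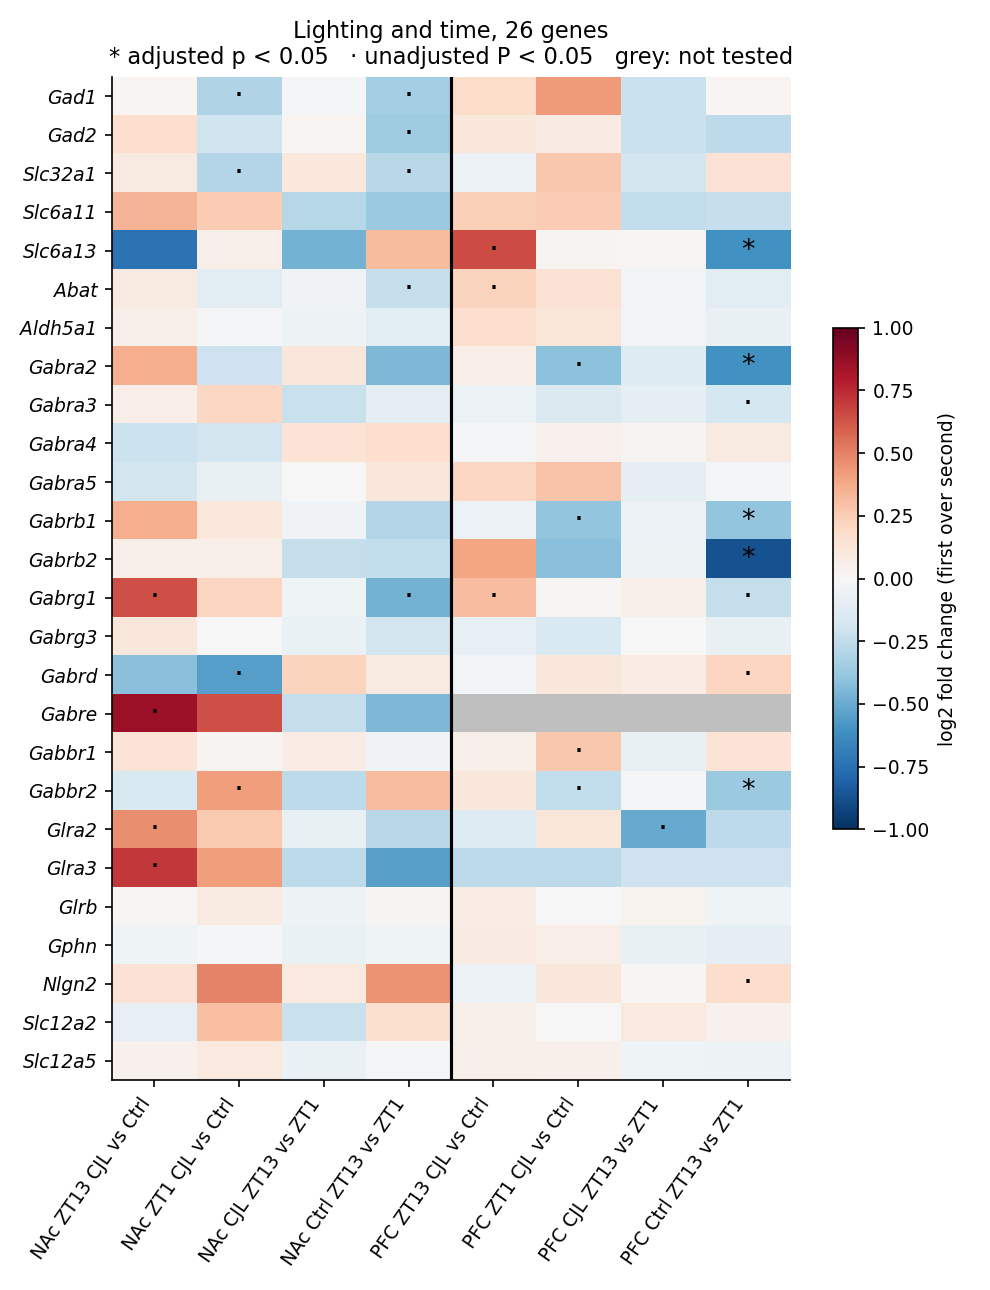
Log2 fold changes (colour, −1 to 1, first group over second) of the 26 genes (rows) in the 4 NAc and 4 PFC comparisons of lighting and time (columns). Stars mark an adjusted p under 0.05, dots an unadjusted P under 0.05, and grey cells are Gabre in PFC, not tested; the 5 stars are in the column of PFC Ctrl ZT13 vs ZT1.

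In PFC of Ctrl mice 5 of 25 genes fell at ZT13 relative to ZT1 and none rose at a limma adjusted p under 0.05. Of all 14914 genes 12.3% passed, 8.8% higher and 3.54% lower. There were 9 genes (2 positive, 7 negative) at an unadjusted P under 0.05, against 30.6% of all genes, 20.7% higher and 9.91% lower. With median-of-ratios scaling the share of higher genes among all those at such a P was 49.1% instead of 67.7%, and the genes here were 0 higher and 7 lower. Groups did not overlap for 10 genes, against 33.4% of all. The median log2 fold change of the 25 genes was −0.09, and that of all genes was 0.06. Of the 9 GABA-A subunits tested 3 fell, of the 2 GABA-B subunits 1 fell, of the 4 genes of uptake and breakdown 1 fell, and of the 3 genes of synthesis and packaging, the 3 glycine receptor subunits, the 2 scaffold genes and the 2 cotransporters none passed.

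Gabbr2 had 68.3, 57.4 and 59.7 FPKM in PFC Ctrl ZT13, against 77.4, 81.8 and 79.7 FPKM in PFC Ctrl ZT1. The ZT1 libraries were close together and all above those of ZT13 (log2 fold change −0.37, SE 0.0730, limma adjusted p = 0.0136). Gabrb1, the beta 1 subunit (chromosome 5, 71658113 to 72149037), had 6.77, 6.57 and 5.91 FPKM at ZT13 and 8.98, 8.04 and 8.32 FPKM at ZT1, again apart (−0.39, SE 0.0973, adjusted p = 0.0263). Gabra2, an alpha subunit (chromosome 5, 70957597 to 71095849), had 6.16, 7.09 and 6.40 FPKM at ZT13 and 9.33, 8.36 and 12.9 FPKM at ZT1 (−0.61, SE 0.172, adjusted p = 0.0412). The third ZT1 library was the highest of all 12 in PFC, and without it the fold change was −0.43. The Gabra2 call was lost in 11 of 16 alternatives, and with single libraries left out its limma adjusted p reached 0.122.

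Slc6a13 (chromosome 6, 121300227 to 121337733) had 3.90, 3.41 and 2.71 FPKM in PFC Ctrl ZT13, against 3.99, 6.01 and 5.43 FPKM in PFC Ctrl ZT1. The first ZT1 library lay next to the ZT13 values (log2 fold change −0.60, SE 0.175, limma adjusted p = 0.0454). The summed level of the 10 fibroblast markers was 30.7 to 45.4 FPKM at ZT13 and 33.6 to 47.2 FPKM at ZT1, and these ranges overlapped. Gabrb2, the beta 2 subunit (chromosome 11, 42419757 to 42629028), had 18.1, 12.2 and 7.86 FPKM at ZT13 and 26.2, 19.2 and 21.2 FPKM at ZT1 (−0.87, SE 0.257, adjusted p = 0.0486). Its ZT13 libraries were widely spread, and without Ctrl ZT13 replicate 3 the value was −0.56 (adjusted p = 0.162).

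Of the genes that did not pass, Gabrd had 33.7, 39.6 and 35.9 FPKM in PFC Ctrl ZT13, against 29.4, 33.7 and 31.0 FPKM in PFC Ctrl ZT1 (log2 fold change 0.21, limma adjusted p = 0.0671). Gabra3 had 39.7, 38.5 and 38.2 FPKM at ZT13 and 44.5, 43.8 and 43.3 FPKM at ZT1 (−0.18, adjusted p = 0.115). Nlgn2 had 59.0, 58.8 and 60.7 FPKM at ZT13 and 55.9, 45.8 and 56.5 FPKM at ZT1 (0.18, adjusted p = 0.128), and without Ctrl ZT1 replicate 2 the value was 0.08. With the GC and length adjustment Gabrd was at 0.02 and Nlgn2 at 0.09. In the deposited values all 3 kept their groups apart.

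Fitted with the 6 libraries of the comparison alone, none of the 25 genes passed, and with single libraries left out the count was 0 to 5, with 0 without Ctrl ZT13 replicate 2 or 3, 1 without Ctrl ZT1 replicate 3 and 2 without Ctrl ZT1 replicate 1 or 2. With values adjusted for GC content and exon length 2 genes passed, Gabbr2 (−0.42) and Slc6a13 (−0.75), and Gabrb1, whose merged exons total 13838 bases, was −0.15 (adjusted p = 0.193).

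Gabrb1 and Gabra4 start head to head on chromosome 5 on opposite strands, and their annotated exons share 46 bases. In PFC the FPKM of Gabrb1 over Gabra4 was 0.219, 0.221 and 0.220 in CJL ZT13, 0.237, 0.224 and 0.240 in CJL ZT1, 0.232, 0.225 and 0.219 in Ctrl ZT13, and 0.326, 0.309 and 0.316 in Ctrl ZT1. The 3 Ctrl ZT1 libraries thus stood above the other 9, which lay within 0.219 to 0.240. Gabra4 itself had 29.1, 29.2 and 26.9 FPKM in Ctrl ZT13 and 26.04 to 27.5 FPKM in Ctrl ZT1. In NAc the ratio ran from 0.299 to 0.863. The ratio was chosen after the values were seen and is given with no test, and the same 3 libraries were those with the highest mitochondrial share, whose part in it was not tested.

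The stretch before the RefSeq start of Gabra4 is shown because the genes are head to head, so that it also lies inside the span of Gabrb1 (chr5:71658364-71658558, minus strand, GRCm38.p6, 5′ to 3′, outside GENCODE M21 exons, CG pairs in capitals).
Gabra4: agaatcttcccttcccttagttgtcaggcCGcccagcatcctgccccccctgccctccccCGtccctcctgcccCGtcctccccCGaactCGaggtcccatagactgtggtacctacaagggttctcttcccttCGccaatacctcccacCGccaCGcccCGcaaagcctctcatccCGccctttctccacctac
It holds 10 CG pairs in 195 bases.

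**Figure D3:**
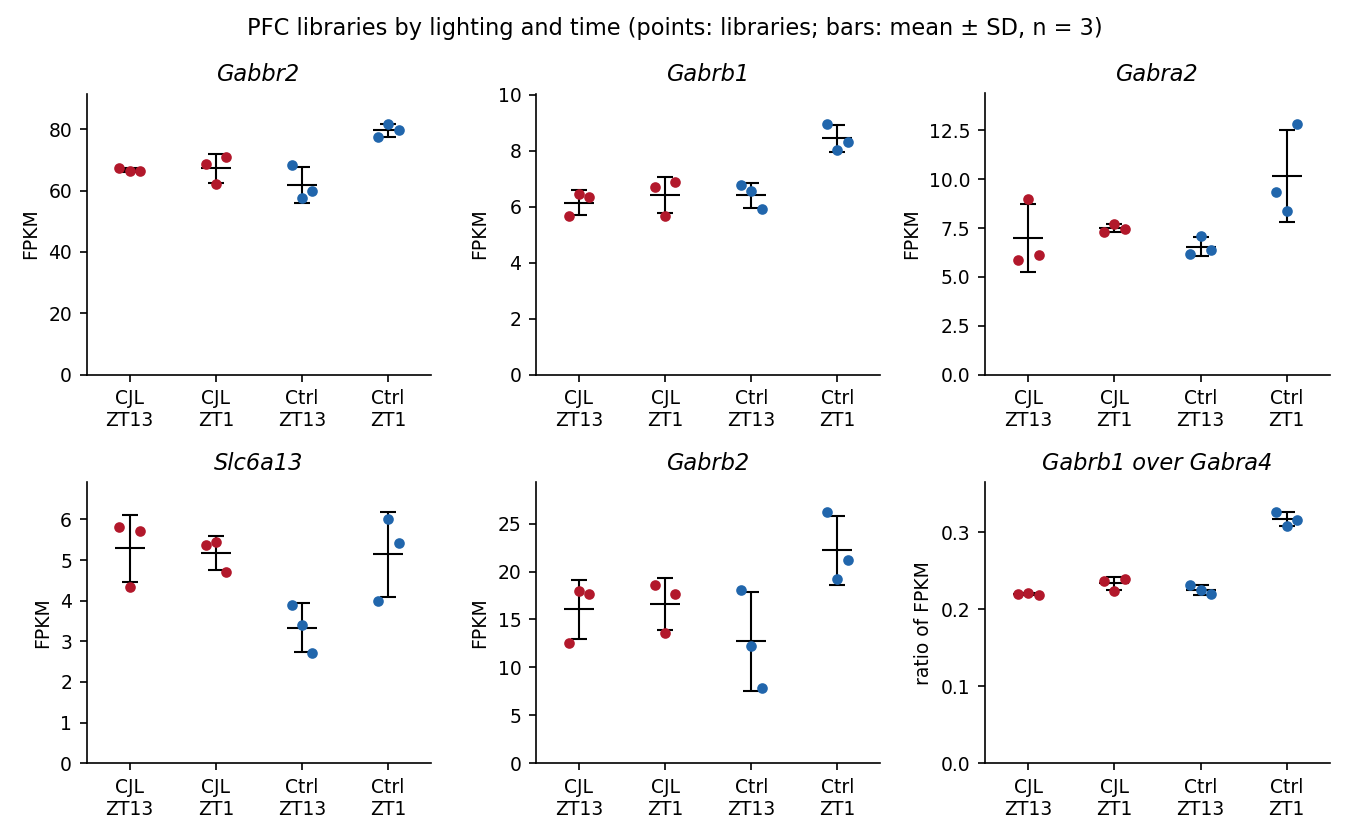
FPKM of Gabbr2, Gabrb1, Gabra2, Slc6a13 and Gabrb2, and the ratio of Gabrb1 to Gabra4 (y axes, from 0), in the 4 PFC groups (x axis), with a point per library and bars at mean ± SD (n = 3). The Ctrl ZT1 libraries lie above the Ctrl ZT13 libraries in all 6 panels, and in the ratio they lie at 0.309 to 0.326 above every other PFC library.

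Of 30 other genes of inhibitory synapses tested from the list of 36, 2 were higher and 2 lower at an adjusted p under 0.05, where 12.3% of all genes passed, and an unadjusted P under 0.05 was found for 15, 5 of them higher and 10 lower, where 30.6% of all genes had such a P. The higher genes were Gabarapl1 (log2 fold change 0.50) and Gabarapl2 (0.37), relatives of the receptor trafficking protein GABARAP that also act in autophagy. The lower genes were Iqsec3, an exchange factor at gephyrin scaffolds (−0.43), and Slc6a12, the betaine and GABA transporter (−1.12), which averaged 0.419 ± 0.160 FPKM in Ctrl ZT13 and 0.994 ± 0.116 FPKM in Ctrl ZT1 (SD, n = 3 each). The summed level of interneuron markers was 937.6 to 1133 FPKM in PFC Ctrl ZT13 and 815.7 to 887.7 FPKM in PFC Ctrl ZT1, and its part in these results was not tested. Olfactory bulb markers summed to 22.0 to 29.1 FPKM at ZT13 and 31.1 to 93.2 FPKM at ZT1 and choroid plexus markers to 22.3 to 620.7 FPKM at ZT13 and 3.11 to 12.3 FPKM at ZT1, and without the libraries high in them 5 of the 25 genes were lower at an adjusted p under 0.05. With a covariate for such markers instead, 2 of the 25 genes were higher and 3 lower at an adjusted p under 0.05. These 2 higher genes are not named here, and Gabrd and Nlgn2 were not among them. Of the bulb markers 3 of 9 tested were lower at ZT13 at an unadjusted P under 0.05, of the choroid plexus markers 2 of 4 tested were higher, and at most 1 of 10 bulb and 2 of 10 choroid plexus markers were at 0 in a PFC library.

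At ZT1 in PFC, CJL against Ctrl mice, no gene of the 25 passed by limma, and 4 had an unadjusted P under 0.05, where 1.59% of all genes passed and 21.2% had such a P. Groups did not overlap for 6 genes, against 27.4% of all. Gabbr1, the partner that binds GABA in the GABA-B receptor, had 199.6, 210.3 and 188.7 FPKM in CJL and 170.4, 153.1 and 172.3 FPKM in Ctrl (log2 fold change 0.27, SE 0.0655, adjusted p = 0.0607). Gabrb1 had 6.71, 5.68 and 6.89 FPKM in CJL and 8.98, 8.04 and 8.32 FPKM in Ctrl (−0.39, SE 0.0973, adjusted p = 0.0644). Gabbr2 had 68.7, 62.1 and 71.0 FPKM in CJL and 77.4, 81.8 and 79.7 FPKM in Ctrl (−0.24, SE 0.0730, adjusted p = 0.0935). All 3 genes had separate groups, with Gabbr1 and Gabbr2 displaced in opposite directions. Gabra2 was at −0.41 (adjusted p = 0.195), and −0.23 without Ctrl ZT1 replicate 3. This comparison shares the PFC Ctrl ZT1 libraries with the one before. Of all genes at an unadjusted P under 0.05, 65.2% were higher, and 49.7% with median-of-ratios scaling. With a covariate for neighbouring tissue 2 genes passed, 1 in each direction, of which Gabrb1 was at −0.40 (adjusted p = 0.0414). The higher of these genes is not named here and was not Gabbr1, whose lowest limma adjusted p over the alternatives was 0.0529. With the GC and length adjustment Gabrb1 was at −0.17. Of the other genes of inhibitory synapses 1 passed, Gabarapl1 (0.55, adjusted p = 0.0309), at 249.0 ± 20.3 FPKM in CJL and 170.4 ± 19.9 FPKM in Ctrl (SD, n = 3 each).

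At ZT13 in PFC, again none of the 25 genes passed by limma, where 0.0201% of all genes did. At an unadjusted P under 0.05 there were 3, all higher in CJL, against 12.6% of all genes, 5.73% higher, and 5 genes had groups that did not overlap, against 17.9%. Slc6a13 had 5.82, 4.34 and 5.70 FPKM in CJL and 3.90, 3.41 and 2.71 FPKM in Ctrl (log2 fold change 0.65, SE 0.175, limma adjusted p = 0.301). Gabrg1 had 4.83, 4.83 and 5.04 FPKM in CJL and 4.32, 3.91 and 3.60 FPKM in Ctrl (0.31, adjusted p = 0.313). Abat had 66.6, 59.6 and 63.8 FPKM in CJL and 59.1, 55.3 and 49.2 FPKM in Ctrl (0.22, adjusted p = 0.386). The CJL libraries of the 3 genes were above the Ctrl libraries without exception. Of all genes at such a P, 45.3% were higher, and 56.3% with median-of-ratios scaling. The fibroblast markers summed to 29.9 to 44.7 FPKM in CJL and 30.7 to 45.4 FPKM in Ctrl, and these ranges overlapped.

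The CJL effect at ZT13 minus that at ZT1 was tested as an interaction. None of the 25 genes passed in PFC (0.0805% of all genes did), and 5 had an unadjusted P under 0.05 by limma, against 18.4% of all. They were Gabbr2 (0.36, SE 0.103, adjusted p = 0.115), Slc6a13 (0.63), Gabrb1 (0.33), Gabbr1 (−0.21) and Gabrb2 (0.82). Gabrb1 was at 0.09 with the GC and length adjustment, Gabbr1 at −0.06 under quantile normalization, and Gabrb2 at 0.51 without Ctrl ZT13 replicate 3. Of all genes at such a P 28.8% were positive, and 48.1% with median-of-ratios scaling. Without Ctrl ZT13 replicate 1, Gabbr2 passed (0.43, adjusted p = 0.0258). In CJL mice alone, ZT13 against ZT1, none passed in PFC (0.0335% of all) and 1 had an unadjusted P under 0.05 by limma (6.88% of all). This was Glra2, with 2.02, 2.88 and 2.43 FPKM at ZT13 and 3.41, 4.10 and 3.00 FPKM at ZT1, without overlap (−0.51, SE 0.160, adjusted p = 0.601), and −0.26 without the libraries high in neighbouring tissue. Groups were apart for 2 genes, against 13.7% of all.

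In NAc no comparison of lighting or time held a call, for the 26 genes or for any other gene (0% called). In Ctrl mice at ZT13 against ZT1, 5 of the 26 genes had an unadjusted P under 0.05 by limma and all 5 were lower, against 10.1% of all genes, 4.88% lower. Groups did not overlap for 6 genes, against 16.2%. Gad1 had 164.6, 182.7 and 182.1 FPKM at ZT13 and 230.2, 218.3 and 220.3 FPKM at ZT1 (log2 fold change −0.34, SE 0.0949, limma adjusted p = 0.270). Abat had 117.0, 133.7 and 128.9 FPKM at ZT13 and 152.4, 154.1 and 140.7 FPKM at ZT1 (−0.24, SE 0.0785, adjusted p = 0.337). Slc32a1 had 75.2, 95.0 and 84.2 FPKM at ZT13 and 102.2, 104.7 and 99.7 FPKM at ZT1 (−0.28, SE 0.103, adjusted p = 0.396). In these 3 genes every ZT1 library was above every ZT13 library. The groups of Gad2 (−0.35, adjusted p = 0.400) and Gabrg1 (−0.47, adjusted p = 0.407) were also apart, and Gabrg1 was at −0.29 without Ctrl ZT13 replicate 3. The 12 markers of striatal projection neurons summed to 1307 to 1499 FPKM at ZT13 and 1324 to 1511 FPKM at ZT1, overlapping ranges, while the cortical excitatory markers summed to 293.5 to 403.0 FPKM at ZT13 and 137.7 to 203.3 FPKM at ZT1, 7 of 12 of them higher at an unadjusted P under 0.05. No marker of either list was at 0 in a library. At such a P 4 of 9 markers of septum and ventral forebrain were lower at ZT13 (summed levels of 74.5 to 87.7 FPKM at ZT13 and 105.3 to 145.0 FPKM at ZT1), and 4 of 9 fibroblast markers tested were higher (23.8 to 40.8 FPKM at ZT13 and 15.3 to 24.2 FPKM at ZT1). The part of the cortical, septal and fibroblast markers in these values was not tested.

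**Figure D4:**
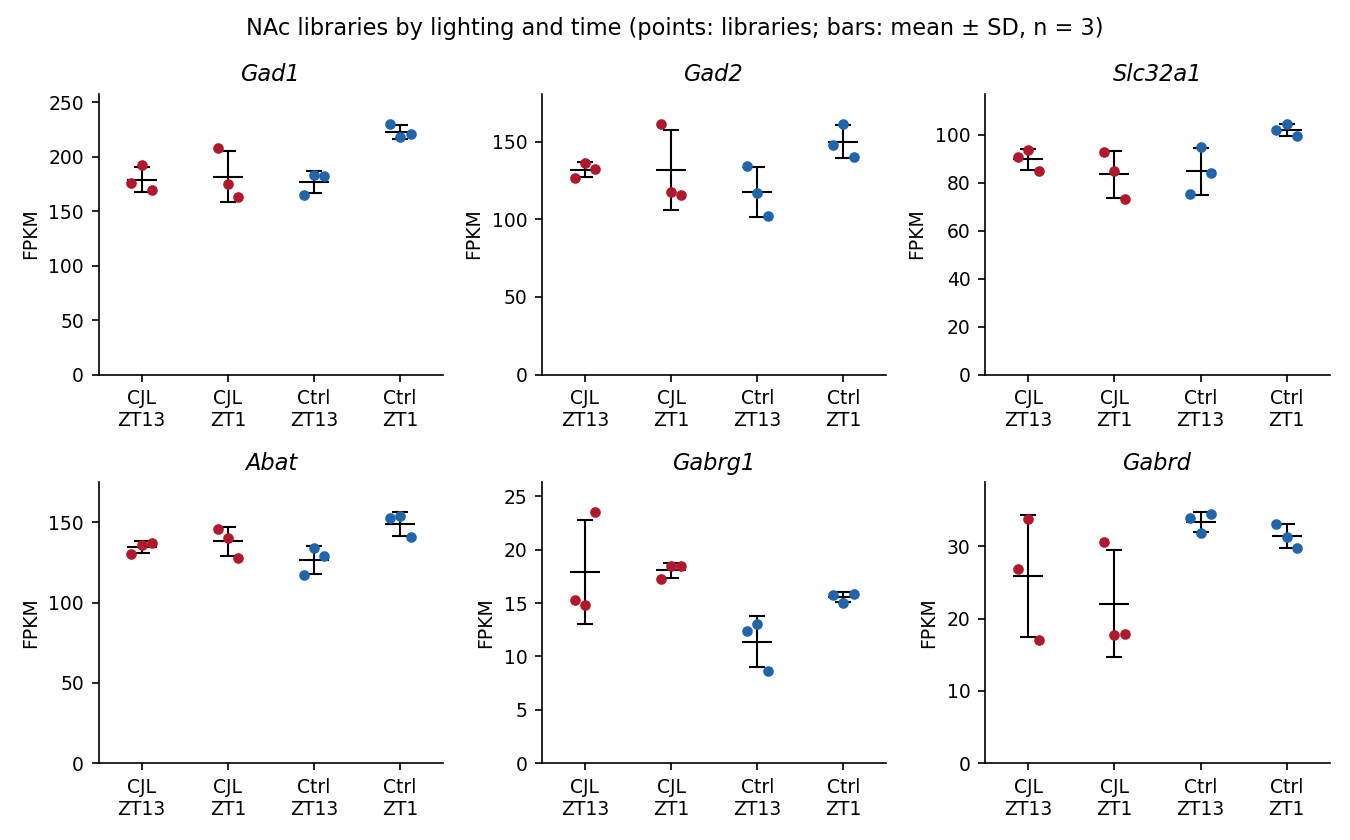
FPKM of Gad1, Gad2, Slc32a1, Abat, Gabrg1 and Gabrd (y axes, from 0) in the 4 NAc groups (x axis), with a point per library and bars at mean ± SD (n = 3). For Gad1 and Slc32a1 the Ctrl ZT1 libraries lie above those of CJL ZT1 and of Ctrl ZT13, and Gabrd is at 17.1 to 17.8 FPKM in 3 CJL libraries.

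At ZT1 in NAc, CJL against Ctrl, 4 genes had an unadjusted P under 0.05 by limma, against 7.71% of all, and 6 had groups that did not overlap, against 14% of all. Gad1 had 207.5, 174.6 and 162.7 FPKM in CJL and 230.2, 218.3 and 220.3 FPKM in Ctrl (log2 fold change −0.30, SE 0.0949, limma adjusted p = 0.628). Slc32a1 had 92.8, 84.9 and 73.3 FPKM in CJL and 102.2, 104.7 and 99.7 FPKM in Ctrl (−0.30, SE 0.103, adjusted p = 0.628). Of all genes at such a P 65.5% were higher, and 48.9% with median-of-ratios scaling. In both Gad1 and Slc32a1 all CJL libraries were below all Ctrl libraries, and these Ctrl libraries are the ZT1 group of the previous comparison. The first of the 3 CJL libraries was the nearest to Ctrl, and it is also the one whose striatal markers summed to 1486 FPKM, against 899.5 and 633.1 FPKM in the other CJL libraries and 1324 to 1511 FPKM in Ctrl. Of the 12 markers 3 were lower in CJL at an unadjusted P under 0.05 and none was at 0 in a library. At such a P 6 of 7 ependymal markers were higher in CJL (median log2 fold change 1.86, summed levels of 31.1 to 45.3 FPKM in CJL and 10.4 to 23.5 FPKM in Ctrl), as were 4 of 12 markers of thalamus and hypothalamus (median 1.39, sums of 98.9 to 498.8 FPKM in CJL and 38.7 to 102.2 FPKM in Ctrl). Of the septal markers 3 of 9 and of the interneuron markers 2 of 12 were lower. The part of all these markers in the Gad1 and Slc32a1 values was not tested.

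Gabrd had 30.7, 17.8 and 17.8 FPKM in NAc CJL ZT1, against 33.1, 31.3 and 29.8 FPKM in NAc Ctrl ZT1 (log2 fold change −0.55, limma adjusted p = 0.641), and −0.20 with the covariate for neighbouring tissue. Over all 12 NAc libraries it was at 17.1 to 17.8 FPKM in 3, CJL ZT13 replicate 3 and CJL ZT1 replicates 2 and 3, and at 26.8 to 34.4 FPKM in the other 9. Those 3 libraries also held the lowest sums of striatal markers, at 633.1 to 899.5 FPKM, and the highest sums of thalamic and hypothalamic markers, at 486.0 to 563.9 FPKM, against 37.7 to 214.8 FPKM in the other 9. The part of both in the Gabrd values was not tested. Gabbr2 was at 0.41 (adjusted p = 0.646) and at 0.10 with that covariate.

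**Figure D5:**
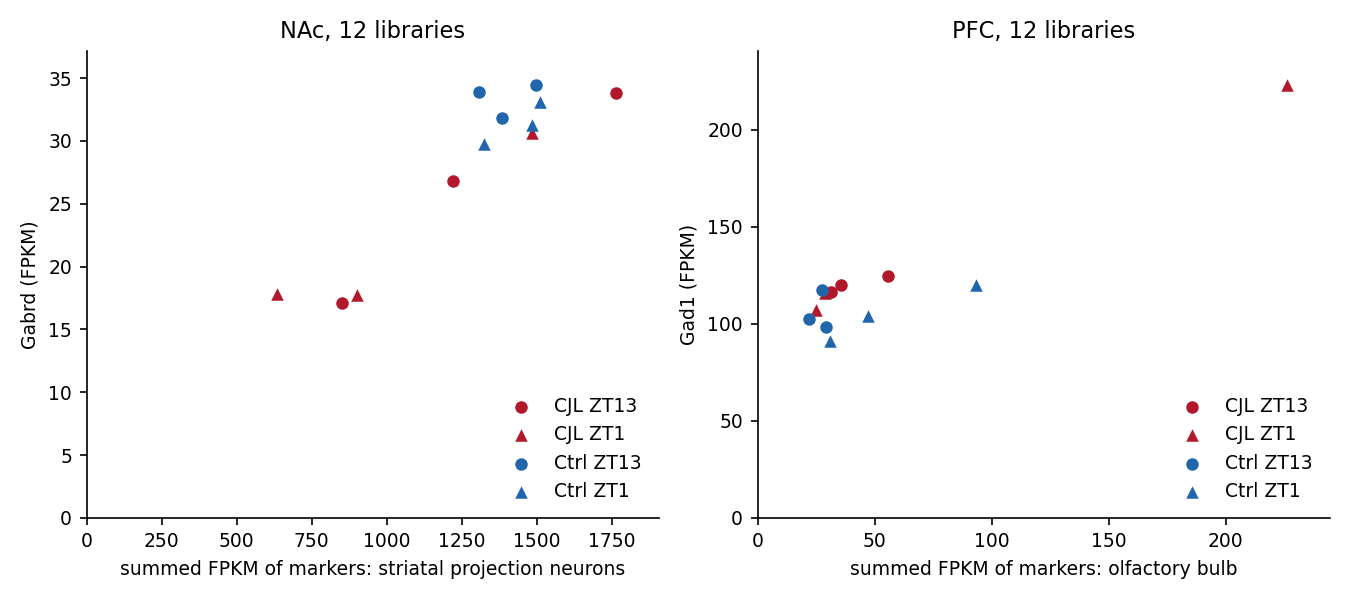
Left, Gabrd in FPKM (y axis) against the summed FPKM of 12 striatal projection neuron markers (x axis) in the 12 NAc libraries; right, Gad1 against the summed FPKM of 10 olfactory bulb markers in the 12 PFC libraries. Colour gives lighting and shape gives time; 3 NAc libraries lie at low Gabrd and low markers, and 1 PFC library lies at 222.8 FPKM of Gad1 and 226.4 FPKM of bulb markers.

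At ZT13 in NAc 4 genes had an unadjusted P under 0.05 by limma, all higher in CJL, against 8.32% of all genes, 5.31% higher. Only Gabrg1 had separate groups (12.9% of all genes did), with 15.3, 14.8 and 23.5 FPKM in CJL and 12.4, 13.1 and 8.63 FPKM in Ctrl (log2 fold change 0.64, SE 0.181, limma adjusted p = 0.458). The CJL value of 23.5 and the Ctrl value of 8.63 are from libraries high in thalamic and choroid plexus markers, and without such libraries the fold change was 0.24. Of all genes at such a P 63.8% were higher, and 48.7% with median-of-ratios scaling. The other 3 genes overlapped between the groups. Glra2 was at 0.46 and at 0.11 without such libraries, and Glra3 at 0.70 and at 0.30. Gabre was at 0.86 and, without Ctrl ZT13 replicate 1, at 0.32. Markers of septum and ventral forebrain summed to 107.8 to 118.6 FPKM in CJL and 74.5 to 87.7 FPKM in Ctrl. Of these 9 markers 2 were higher in CJL and 0 lower at an unadjusted P under 0.05. Of 9 fibroblast markers tested 5 were lower and 0 higher (sums of 18.1 to 23.4 FPKM in CJL and 23.8 to 40.8 FPKM in Ctrl). The part of both lists in these values was not tested. The interaction in NAc gave 2 genes at an unadjusted P under 0.05 by limma, Slc32a1 (0.38, adjusted p = 0.726) and Gad1 (0.32, adjusted p = 0.745), against 6.47% of all. In CJL mice, ZT13 against ZT1, there was none, against 5.21% of all, and only Gabbr1 had groups apart, against 10.9%. Rescaled without mitochondrial genes, the higher share of all genes at such a P was 33.7% instead of 44.9% for the interaction and 41.6% instead of 52.8% for CJL mice.

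The range of several genes in PFC was set by a single library. PFC CJL ZT1 replicate 2 had the highest value of the 12 PFC libraries for 11 of the 26 genes. It had 222.8 FPKM of Gad1 against 91.1 to 124.6 FPKM in the other 11, 42.7 against 22.0 to 32.0 FPKM of Gad2, 44.4 against 25.3 to 33.7 FPKM of Slc32a1, 68.4 against 27.8 to 42.2 FPKM of Slc6a11 and 30.9 against 15.2 to 24.1 FPKM of Gabra5. Its 10 olfactory bulb markers summed to 226.4 FPKM, and their part in these values was not tested. PFC Ctrl ZT13 replicate 3 had the lowest PFC value for 11 genes. The share of all genes for which these libraries were highest or lowest was not computed, so it is unknown whether this is particular to the 26 genes.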

How the data were processed

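The authors sequenced mRNA libraries as 150-base read pairs, checked reads with FastQC 0.11.9, aligned them with HISAT2 to mm10 and deposited FPKM values from StringTie for each of 24 libraries. Versions of the other tools and the strandedness of the libraries are not given in the sources used here. Another 8 deposited tables hold the authors' own fold changes and p-values between groups and were not used. FPKM values keep no read depth, and a share taken by a few genes moves all others, since the values of a library are relative to its sum.

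Here limma 3.58.1 (R 4.3.3) was fitted to log2(FPKM + 0.1) with a mean-variance trend, over 12 libraries for each region and over 24 for NAc against PFC (region means over the 4 conditions). Genes with at least 1 FPKM in at least 3 libraries were kept, p-values were adjusted by Benjamini-Hochberg over all genes kept, and the threshold was 0.05. The scripts were tested on simulated data. Groups came from the sample labels, which do not say which libraries share a mouse. Both regions were taken from 3 mice for each lighting and time, so the fit over 24 libraries takes libraries of the same mice as separate, and its p-values do not account for this. The 26 genes, the 36 other genes of inhibitory synapses and the marker lists were chosen with earlier results of these data known. By the rule for named genes, all 26 are named, and values of every library are given for those that passed in a comparison of lighting or time and for up to 3 more with the smallest unadjusted P whose groups did not overlap. For the regions, the 6 largest called differences in each direction get values, and of the 36 other genes at most 3 called in each direction are named. Summed marker levels are sums of FPKM. The ratios between genes were chosen after the values were seen.

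Alternatives were another pseudocount, no filter, median-of-ratios and quantile scaling, fitting 2 groups alone, a replicate block and leaving out single libraries. Chosen after seeing the data were leaving out libraries with a neighbouring tissue's markers more than 1.5 log2 units above the region's median, a covariate for such markers, rescaling without mitochondrial genes, and subtracting medians of 20 bins of GC content and of exon length. Positions and exons are from GENCODE M21 and promoter windows from RefSeq, both on GRCm38. Matplotlib 3.10.9 drew the figures.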

Additional observations from a re-analysis of the deposited data

How the results depend on the processing

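Of the 26 genes, 22 to 24 passed between NAc and PFC when single libraries were left out. Between ZT13 and ZT1 in PFC of Ctrl mice 5 of 25 genes passed, against 1 with no filter on low values, 0 with the 2 groups fitted alone, 2 after the GC and length adjustment, and 0 to 5 when single libraries were left out. These were lower at ZT13, except that with the neighbouring-tissue covariate 2 were higher and 3 lower, and without Ctrl ZT13 replicate 1 it was 1 higher and 4 lower. With the replicate number as a block 2 genes passed, but within a region this block joins libraries of different mice and so accounts for no pairing. Between the regions the block was the replicate number within each lighting and time, and 16 were higher and 8 lower. The numbers were not taken as pairs: deviations of same-numbered NAc and PFC libraries correlated at 0.0175 to 0.134, over 0.1 in 1 of 12 pairs, against −0.150 to 0.109 in 24 other pairs, and 16 of 24 libraries correlated best with their own number, which is a hint from the data only. For CJL against Ctrl at ZT1 in PFC 2 genes passed with the neighbouring-tissue covariate, against 0 without it. For the interaction in PFC 0 to 1 passed when single libraries were left out. No alternative gave a call among these genes within NAc. Over the alternatives of the results named for single genes, 759 values of called genes kept their call, 57 lost it, 564 values of genes not called stayed so and 15 passed. Most of the values of called genes were from NAc against PFC. The 5 calls in PFC of Ctrl mice had 16 alternatives each. Of these, Gabra2 lost its call in 11, Gabrb2 in 9, Gabrb1 in 8, Slc6a13 in 8 and Gabbr2 in 3. The cause of these changes was not tested, beyond the smaller number of samples or larger number of genes where an alternative has them. Without read counts, the counting error of genes near 1 FPKM (Glra3 and Gabre) cannot be given, and with 3 libraries per group small changes can be missed.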
